A study of Mus musculus with 9 samples.

Results

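Keratins are the intermediate filament proteins of epithelial cells. A type I (acidic) keratin pairs with a type II (basic) keratin, and different pairs are made in simple epithelia, in the basal and upper layers of the epidermis, in mucosa and in the hair follicle. The mouse genes lie in a type I cluster on chromosome 11, which also holds genes of keratin-associated proteins (*Krtap*), and in a type II cluster on chromosome 15. *Krt18*, a type I gene, lies in the latter beside its type II partner *Krt8*. *Krt8*, *Krt18* and *Krt19* are keratins of simple epithelia and of early embryonic epithelium, and are described apart from the others. Methylation of CpGs around a TSS often goes with low expression, whereas gene bodies are methylated in most tissues.

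All protein-coding genes of the mm9 annotation on these chromosomes whose symbol is Krt followed by a number were taken, 51 of 14278 protein-coding genes in the part of the genome that all 3 tables cover. Of these, 27 lie on chromosome 11 and 24 on chromosome 15. The rule uses names and positions, not methylation values, though it was set with earlier results of these data known. One of them, *Krt72-ps*, has the symbol of a pseudogene but is annotated as protein-coding. The symbols *Krt72*, *Krt85* and *Krt87* were not found among the annotated genes and were not analysed here.

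WGBS was done on embryonic stem cells (ESCs) of the J1 line, wild type (WT) or KO for *Dnmt3a* or for *Dnmt3b*, to learn what each de novo methyltransferase contributes to CpG methylation. J1 is a mouse ESC line of the 129S4/SvJae strain; the KO lines lack *Dnmt3a* (Dnmt3a-/-) or *Dnmt3b* (Dnmt3b-/-), and values given as without *Dnmt3a* or without *Dnmt3b* are those of these lines. All were grown on gelatin with serum and LIF. The methods do not say whether each KO line is 1 clone. For each genotype 3 libraries, 9 in all, were merged by the authors to 1 table of reads per CpG, so that each genotype gives 1 pooled value without replicate error, and line and genotype cannot be told apart.

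The values are the share of methylated reads over those CpGs that had 3 or more reads in each genotype. The promoter is the 1 kb on both sides of the TSS, and the gene body runs from 1 kb after the TSS to the transcript end, so that they share no CpG. A gene was counted as lower when the share was lower by more than 20 percentage points, without a test. Bracketed ranges are 95% intervals (Wilson for a share, Newcombe for a difference) and cover counting error only. PCR reads without molecular identifiers are not independent molecules, and 1 read over neighbouring CpGs is counted at each of them. The intervals, and the upper bounds given where no read was methylated, treat all these counts as independent. Such an upper bound is 3 divided by the count of reads, not a Wilson bound. At the *Krt18* start in *Dnmt3a* KO ESCs the Wilson bound is higher, 2.12% against 1.69%. The KO comparisons share 1 set of WT reads.

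All 51 keratin genes were measured in both windows, with 1787 of 1822 reference CpGs at the promoters and 4264 of 4365 in the gene bodies. The median depth per gene at the promoter was 23.2 reads per CpG in WT, 22.2 without *Dnmt3a* and 22.5 without *Dnmt3b*. In *Dnmt3a* KO ESCs 12 successive CpGs of *Dnmt3a* (chr12:3902401-3902802) had no read, and in *Dnmt3b* KO ESCs 30 successive CpGs of *Dnmt3b* (chr2:153502553-153504282) had none, which checks the labels. RNA levels were not analysed here, so that silence of the keratin genes was not checked. In WT the promoters of the pluripotency genes *Pou5f1*, *Sox2* and *Sall4* were methylated at 0.995%, 0.0977% and 5.61%, whereas that of *Esrrb*, at the start of its longest annotated transcript, was at 92.7%.

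The DNA around 6 TSSs shows how different these promoters are. Each sequence runs 5′ to 3′ on the strand of the gene, from 250 bases before the TSS, and ends with the TSS and the bases after it, 280 bases in all, with CpGs in capitals (mm9). The simple epithelial genes come before 3 epidermal genes, the basal pair *Krt5* and *Krt14* and the wound-induced *Krt17*, which had the largest promoter difference of the 51 genes in *Dnmt3a* KO ESCs.
Krt8, chr15:101834744-101835023, minus strand: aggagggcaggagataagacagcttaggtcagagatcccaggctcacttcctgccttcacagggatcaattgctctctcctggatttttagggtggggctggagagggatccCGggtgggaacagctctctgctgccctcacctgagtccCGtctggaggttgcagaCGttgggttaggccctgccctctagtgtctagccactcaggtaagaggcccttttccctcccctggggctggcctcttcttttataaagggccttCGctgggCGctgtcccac
Krt18, chr15:101858397-101858676, plus strand: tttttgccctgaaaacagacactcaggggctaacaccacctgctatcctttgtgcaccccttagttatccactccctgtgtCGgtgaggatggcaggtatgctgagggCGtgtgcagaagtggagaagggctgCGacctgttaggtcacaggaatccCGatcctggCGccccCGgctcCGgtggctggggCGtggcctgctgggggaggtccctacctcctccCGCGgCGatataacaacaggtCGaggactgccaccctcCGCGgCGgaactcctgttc
Krt19, chr11:100007405-100007684, minus strand: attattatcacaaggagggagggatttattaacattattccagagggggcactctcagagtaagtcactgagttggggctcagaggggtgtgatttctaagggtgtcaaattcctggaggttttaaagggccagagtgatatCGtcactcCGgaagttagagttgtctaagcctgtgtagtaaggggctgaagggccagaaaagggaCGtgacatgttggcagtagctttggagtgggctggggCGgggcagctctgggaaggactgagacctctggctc
Krt5, chr15:101543293-101543572, minus strand: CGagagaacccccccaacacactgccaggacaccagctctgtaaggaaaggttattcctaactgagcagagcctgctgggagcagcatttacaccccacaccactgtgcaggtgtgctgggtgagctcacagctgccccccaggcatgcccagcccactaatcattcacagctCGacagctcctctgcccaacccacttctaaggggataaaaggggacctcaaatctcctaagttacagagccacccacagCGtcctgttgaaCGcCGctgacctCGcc
Krt14, chr11:100068833-100069112, minus strand: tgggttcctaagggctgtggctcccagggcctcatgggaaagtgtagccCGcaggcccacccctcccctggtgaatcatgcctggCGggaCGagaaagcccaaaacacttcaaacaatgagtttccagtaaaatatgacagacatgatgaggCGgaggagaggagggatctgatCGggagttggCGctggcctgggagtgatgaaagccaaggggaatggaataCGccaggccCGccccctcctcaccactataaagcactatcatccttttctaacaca
Krt17, chr11:100122314-100122593, minus strand: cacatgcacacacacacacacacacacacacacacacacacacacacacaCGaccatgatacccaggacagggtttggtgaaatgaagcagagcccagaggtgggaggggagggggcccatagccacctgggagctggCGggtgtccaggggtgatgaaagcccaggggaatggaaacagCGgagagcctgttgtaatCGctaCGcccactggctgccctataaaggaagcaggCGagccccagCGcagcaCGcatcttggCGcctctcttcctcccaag

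The stretch of *Krt18* holds 15 CpGs, and 0.369% [0.0652 to 2.06] of 271 reads were methylated in WT. In *Dnmt3a* KO ESCs 0 of 177 reads, summed over these CpGs with 8 to 14 at each, were methylated. Taken as independent, they allow a share of up to 1.69%. In *Dnmt3b* KO ESCs the share was 0.325%. The TSS of *Krt18* was thus almost free of methylation in every genotype. The 5 CpGs of *Krt8* were at 6.72% [3.45 to 12.7] in WT, 1.56% without *Dnmt3a* and 4.76% without *Dnmt3b*, with intervals that overlap. *Krt19*, with 4 CpGs, was at 56.9% [48.8 to 64.8] in WT, 7.78% [3.82 to 15.2] without *Dnmt3a* and 34.6% [25.1 to 45.4] without *Dnmt3b*, so that its low DNA in WT began only after the TSS. *Krt5* was at 90.8% in WT, 61.3% without *Dnmt3a* and 71.8% without *Dnmt3b*. *Krt14* was at 94.7%, 61.5% and 89.0%. At *Krt17* the 8 measured CpGs went from 78.4% [67.7 to 86.2] in WT to 1.67% [0.458 to 5.87] in *Dnmt3a* KO ESCs and stayed at 79.2% [68.9 to 86.8] in *Dnmt3b* KO ESCs, on 74 to 120 reads.

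Most keratin promoters were highly methylated in WT, at a median of 92.8% over the 51 genes, against 23.1% over the 14227 measured promoters of all protein-coding genes. The median of the keratin promoters was 57.5% without *Dnmt3a* and 84.4% without *Dnmt3b*. Promoters past the 20-point limit numbered 48 of 51 keratin genes in *Dnmt3a* KO ESCs, beside 44.5% of all promoters, and 4 of 51 in *Dnmt3b* KO ESCs, beside 3.48%. These shares follow the level in WT: among promoters with at least 50% methylation in WT, 46 of 48 keratin genes were lower without *Dnmt3a* and 4 of 48 without *Dnmt3b*, beside 95.8% and 7.46% of all such promoters. The median difference from WT was -32.0 points without *Dnmt3a* and -7.32 points without *Dnmt3b* over the keratin promoters. Set against each other, the KOs differed by more than 20 points, *Dnmt3a* KO being lower, at 33 of 51 keratin promoters and at 32.7% of all promoters. The latter share includes the many promoters that were low in WT. For promoters at 50% or more in WT it was not computed. *Dnmt3a* KO was the lower of the KOs by any amount at all 51, as at 94.7% of all promoters.

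**Figure D1:**
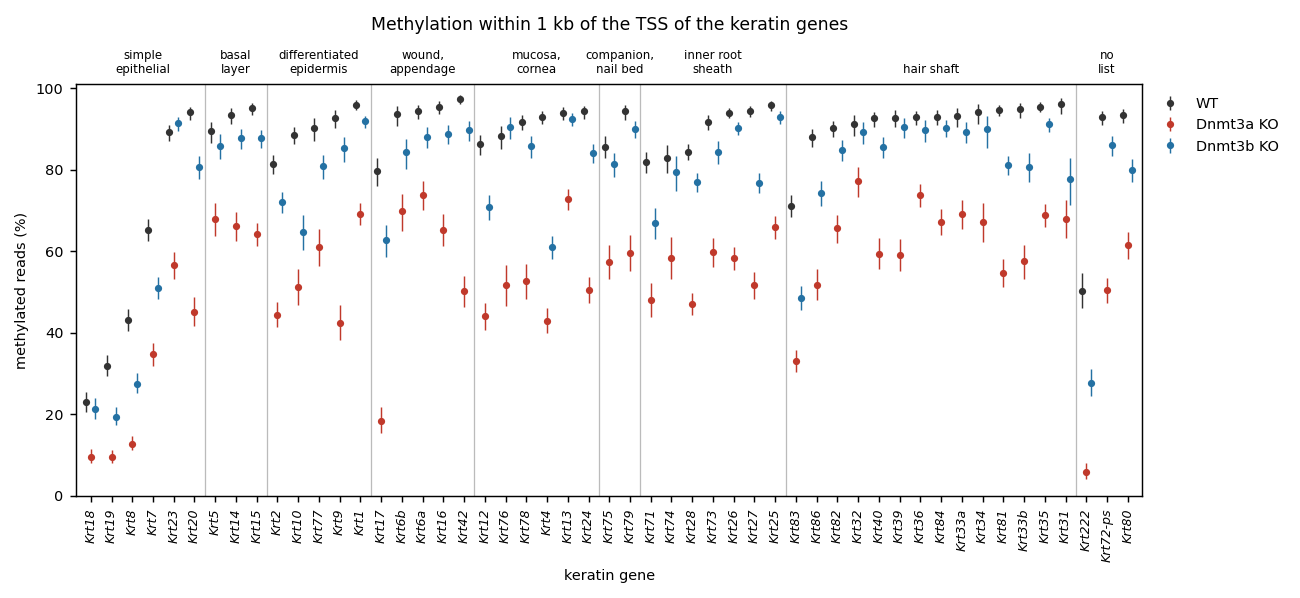
Share of methylated reads (y axis, %) within 1 kb of the TSS of each of the 51 keratin genes (x axis). Genes are grouped by the lists used here and ordered by the WT value. Points stand for WT, *Dnmt3a* KO and *Dnmt3b* KO ESCs, and bars for 95% Wilson intervals of the reads. In each gene the *Dnmt3a* KO point is the lowest, and *Krt18*, *Krt19* and *Krt8* have the lowest WT values.

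The promoters of *Krt18*, *Krt19* and *Krt8* were the 3 lowest of the 51 in WT. *Krt18*, partner of *Krt8* in the first epithelia of the embryo, was at 23.0% [20.7 to 25.5] in WT, 9.62% [7.98 to 11.6] without *Dnmt3a* and 21.3% [18.9 to 23.9] without *Dnmt3b*. Its difference from WT was -13.4 points [-16.4 to -10.3] without *Dnmt3a* and -1.67 points [-5.12 to 1.80] without *Dnmt3b*, the latter within counting error. These values depend on the window: within 500 bp of the TSS *Krt18* was at 12.8% in WT, 2.06% without *Dnmt3a* and 8.88% without *Dnmt3b*. *Krt19*, the smallest keratin, was at 31.9% [29.3 to 34.5] in WT, 9.56% [8.16 to 11.2] without *Dnmt3a* and 19.4% [17.3 to 21.8] without *Dnmt3b*. It differed from WT by -22.3 points [-25.3 to -19.3] and -12.4 points [-15.9 to -8.94]. Within 500 bp of its TSS *Krt19* was at 34.4% in WT, 6.10% without *Dnmt3a* and 23.95% without *Dnmt3b*. *Krt8*, the type II keratin of simple epithelia, was at 43.2% [40.5 to 45.9], 12.8% [11.2 to 14.7] and 27.6% [25.2 to 30.1]. Its differences were -30.4 points [-33.6 to -27.1] and -15.6 points [-19.3 to -12.0]. Among all protein-coding genes these 3 stood near the middle, since 49.9%, 55.8% and 59.9% of all promoters were lower than *Krt18*, *Krt19* and *Krt8* in WT. In the gene body all 3 were methylated, with 92.7%, 94.7% and 74.7% in WT for *Krt18*, *Krt19* and *Krt8*.

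Along these 3 genes the low DNA was short and sat at different places. In 500-bp bins, *Krt18* was at 10.4% in WT just after the TSS and at 86.1% between 1000 and 1500 bp. It had a separate low place upstream, with 5.26% between 2500 and 2000 bp before the TSS. *Krt19* was at 18.9% in the 500 bp after the TSS, 13.3% in the next bin and 99.6% between 1500 and 2000 bp. At *Krt8* the 5 CpGs around the TSS were low, as given above, and of the 500-bp bins the lowest, at 11.4%, was the one between 1000 and 1500 bp after the TSS, beyond the promoter window. There its longest run of successive CpGs under 20% in WT, 15 CpGs over 253 bp, started 1069 bp after the TSS. In *Dnmt3a* KO ESCs the run at *Krt8* held 51 CpGs over 1157 bp and in *Dnmt3b* KO ESCs 37 CpGs over 866 bp. At *Krt19* the longest run went from 7 CpGs in WT to 44 without *Dnmt3a* and 17 without *Dnmt3b*. *Krt18* had runs of 25, 27 and 38 CpGs, the longest run of the 3 in WT and the least changed in *Dnmt3a* KO ESCs. Any CpG at 20% or more ends a run, so that run length is not the amount of low DNA. From 1000 bp before to 1000 bp after the transcript, *Krt8*, *Krt18* and *Krt19* held 38, 37 and 39 CpGs under 20% in WT. These numbered 90, 50 and 60 without *Dnmt3a* and 50, 40 and 50 without *Dnmt3b*. By this count the 3 genes were nearly equal in WT, and *Krt18* had more low CpGs without *Dnmt3a* than without *Dnmt3b*.

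**Figure D2:**
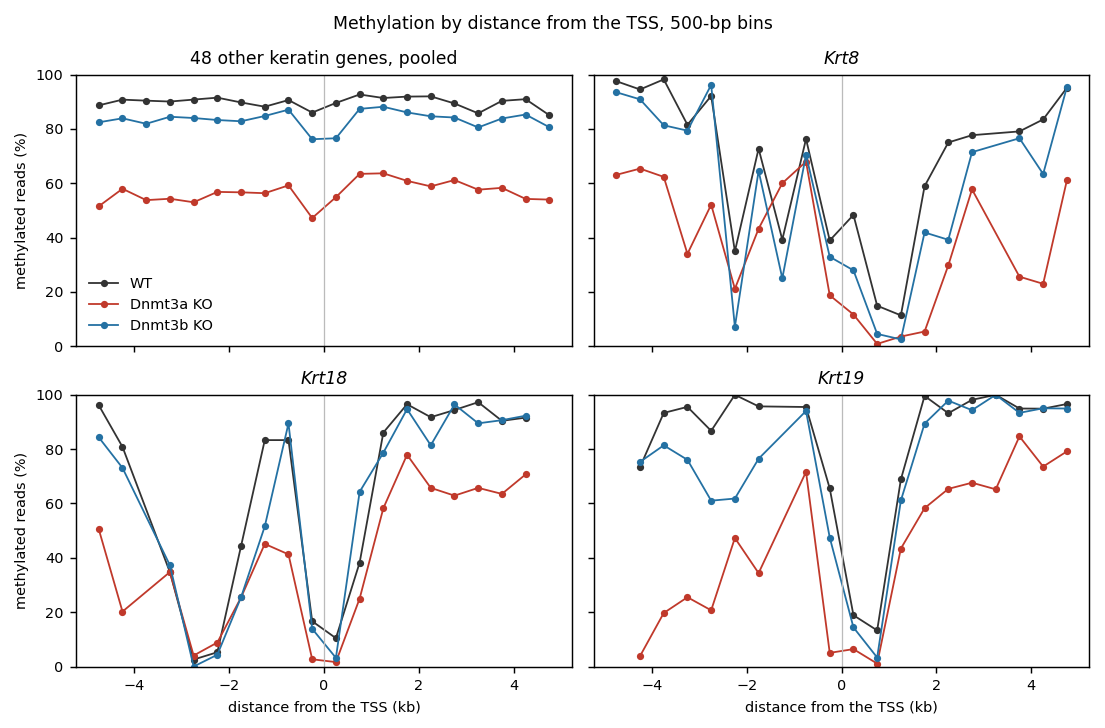
Share of methylated reads (y axis, %) by distance from the TSS (x axis, kb, positive into the gene) in bins of 500 bp, for the other 48 keratin genes pooled and for *Krt8*, *Krt18* and *Krt19*, with a line for each genotype; bins with fewer than 3 CpGs are not drawn. The pooled genes stay between 85.0% and 92.7% in WT, whereas the 3 simple epithelial genes dip near the TSS or, by bins in *Krt8*, after it, and *Krt18* also dips upstream.

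Over the other 48 genes the WT level was almost flat from 5 kb before to 5 kb after the TSS, between 85.0% and 92.7% of reads in each bin of 500 bp. In *Dnmt3a* KO ESCs the lowest bin was the one just before the TSS, at 47.2%, and the highest was 1000 to 1500 bp after it, at 63.7%. In *Dnmt3b* KO ESCs the bins on both sides of the TSS were the lowest, at 76.2% and 76.6%, against 80.5% or more in all other bins. No stretch free of methylation was seen at the TSSs of these genes as a group in any genotype.

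The 48 genes other than *Krt8*, *Krt18* and *Krt19* were all at 50% or more in WT at the promoter, so that the counts of each list stand beside 95.8% of all such promoters lower by more than 20 points in *Dnmt3a* KO ESCs and 7.46% in *Dnmt3b* KO ESCs. By place of expression, the basal layer keratins *Krt5*, *Krt14* and *Krt15* were close to each other. *Krt5*, which pairs with *Krt14* in dividing basal keratinocytes, was at 89.4% [86.6 to 91.6] in WT, 67.9% [63.6 to 71.8] without *Dnmt3a* and 85.9% [82.6 to 88.7] without *Dnmt3b* at its promoter. *Krt14* was at 93.4%, 66.1% and 87.8%. Of the 3 basal genes all were lower by more than 20 points in *Dnmt3a* KO ESCs and none in *Dnmt3b* KO ESCs, where the 3 differences lay between -7.32 and -3.47 points.

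The 5 keratins of differentiated epidermis, which replace the basal pair as cells leave the basal layer, were all lower in *Dnmt3a* KO ESCs, with a median difference of -36.9 points. *Krt1*, the main type II keratin of these layers, was at 96.0% [94.6 to 97.0] in WT, 69.2% [66.5 to 71.8] without *Dnmt3a* and 91.8% [90.2 to 93.2] without *Dnmt3b*. Its partner *Krt10* was at 88.6% [86.2 to 90.6], 51.2% [46.8 to 55.7] and 64.7% [60.3 to 68.9], which is 1 of the 4 promoters lower in *Dnmt3b* KO ESCs, by -23.8 points [-28.7 to -19.0]. Only 26 of 38 reference CpGs at *Krt10* had the reads needed. Of these, 13 lay in the 500 bp after the TSS and 10 in the next 500 bp. Both 500-bp bins before the TSS held fewer than 3, so that the value describes mainly DNA after the TSS. *Krt9*, the keratin of palm and sole skin, went from 92.8% in WT to 42.5% in *Dnmt3a* KO ESCs, the second largest difference with -50.3 points [-55.0 to -45.2], and was at 85.3% in *Dnmt3b* KO ESCs.

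The 5 wound and appendage keratins included the extreme in *Dnmt3a* KO ESCs. *Krt17*, made in hair follicles and in healing skin, was at 79.6% [76.0 to 82.8] in WT, 18.5% [15.5 to 21.8] without *Dnmt3a* and 62.7% [58.7 to 66.5] without *Dnmt3b*. The difference of -61.2 points [-65.5 to -56.2] in *Dnmt3a* KO ESCs was exceeded at 0.886% of all promoters. Upstream of it, over *Krt17*, *Krt42* and the DNA between them, the longest run of CpGs under 20% held 9 CpGs over 456 bp in WT and ended 993 bp before the *Krt17* TSS. In *Dnmt3a* KO ESCs it held 35 CpGs over 1866 bp and reached 48 bp past the TSS, and in *Dnmt3b* KO ESCs it held 9 CpGs over 430 bp. The neighbouring *Krt42* had the highest promoter of all 51 in WT, 97.4% [96.0 to 98.3], and was at 50.1% without *Dnmt3a* and 89.8% without *Dnmt3b*. *Krt6a*, *Krt6b* and *Krt16* were less changed, by -20.5 to -30.2 points in *Dnmt3a* KO ESCs.

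The 6 keratins of mucosa and cornea were all lower by more than 20 points in *Dnmt3a* KO ESCs, as were 95.8% of all promoters at 50% or more in WT, with a median of -40.7 points. *Krt4*, of the oesophagus and other internal mucosa, was at 93.0% [91.2 to 94.5] in WT, 42.9% [39.8 to 46.0] without *Dnmt3a* and 61.1% [58.2 to 63.9] without *Dnmt3b*. Its -31.9 points [-35.2 to -28.6] was the largest difference of the 51 in *Dnmt3b* KO ESCs, and 0.316% of all promoters differed more. Its partner *Krt13* had a small difference, with 94.0% in WT, 72.8% without *Dnmt3a* and 92.4% without *Dnmt3b*. The difference of *Krt13* in *Dnmt3b* KO ESCs, -1.54 points [-3.77 to 0.758], lay within counting error. *Krt76* was at 88.2% in WT and 90.5% in *Dnmt3b* KO ESCs, and *Krt23*, of the simple epithelial list, at 89.2% and 91.4%. These 2 were the only keratin promoters above WT in *Dnmt3b* KO ESCs, with intervals of the difference that include 0, and 92.8% of all promoters were below WT there.

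Among the other simple epithelial keratins, *Krt7*, of ducts and glands, was at 65.2% [62.4 to 67.9] in WT, 34.7% [32.0 to 37.6] without *Dnmt3a* and 51.0% [48.3 to 53.7] without *Dnmt3b*. *Krt20*, of the intestine, was at 94.0% in WT, 45.2% without *Dnmt3a* and 80.7% without *Dnmt3b*. The list was thus split, with *Krt20* and *Krt23* as highly methylated in WT as epidermal genes. The *Dnmt3a* KO difference passed 20 points in 5 of the 6 genes, all but *Krt18*, beside 44.5% of all promoters and 95.8% of those at 50% or more in WT.

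In the hair shaft list 12 of 14 promoters were lower by more than 20 points in *Dnmt3a* KO ESCs, beside 95.8% of all promoters at 50% or more in WT, with a median of -27.5 points. The exceptions were *Krt32*, at 91.1% in WT and 77.2% in *Dnmt3a* KO ESCs, and *Krt36*, at 92.9% and 73.7%. Both were at more than 89% in *Dnmt3b* KO ESCs, with 89.3% and 89.8%. *Krt31* had the second highest WT promoter, 96.1% [93.6 to 97.7], with 68.0% without *Dnmt3a* and 77.7% without *Dnmt3b*, on 14 CpGs. *Krt83* stood apart, with 71.1% [68.4 to 73.7] in WT, 33.1% [30.5 to 35.8] without *Dnmt3a* and 48.6% [45.7 to 51.5] without *Dnmt3b*, and is 1 of the 4 promoters lower in *Dnmt3b* KO ESCs. The 7 inner root sheath genes were all lower in *Dnmt3a* KO ESCs, between -42.9 and -24.5 points, and none passed the limit in *Dnmt3b* KO ESCs, beside 95.8% and 7.46% of all promoters at 50% or more in WT. *Krt75* and *Krt79*, listed here under companion layer and nail bed, were both lower in *Dnmt3a* KO ESCs, by -28.3 and -34.7 points. *Krt81*, *Krt83* and *Krt86*, like *Krt6a* and *Krt6b* or *Krt33a* and *Krt33b*, are close copies, and reads could be split between them.

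Of the 3 genes in no list, *Krt222*, at the edge of the type I cluster, had the lowest promoter after *Krt8*, *Krt18* and *Krt19*. It was at 50.3% [46.0 to 54.6] in WT, 5.83% [4.24 to 7.96] without *Dnmt3a* and 27.7% [24.4 to 31.2] without *Dnmt3b*. That is the lowest *Dnmt3a* KO value of all 51 and the fourth promoter counted as lower in *Dnmt3b* KO ESCs, by -22.6 points [-28.0 to -17.0]. Its longest run of CpGs under 20% was 1 CpG in WT, 25 CpGs over 1291 bp without *Dnmt3a* and 12 CpGs over 317 bp without *Dnmt3b*. *Krt80* and *Krt72-ps* were at 93.4% and 92.8% in WT, and at 61.5% and 50.4% in *Dnmt3a* KO ESCs.

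The medians of the 2 clusters are given side by side. The 26 type I genes other than *Krt19* had a median promoter level of 93.7% in WT, 58.7% without *Dnmt3a* and 87.8% without *Dnmt3b*, and the 22 chromosome 15 genes other than *Krt8* and *Krt18* had 91.0%, 57.9% and 82.8%. Their ranges overlap in every genotype. The gene structures differ by type, with 7 or 8 exons in 25 of the 27 chromosome 11 genes and 9 exons in 23 of the 24 genes on chromosome 15, the exception there being *Krt18*. All 27 genes on chromosome 11 are transcribed from the minus strand.

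**Figure D3:**
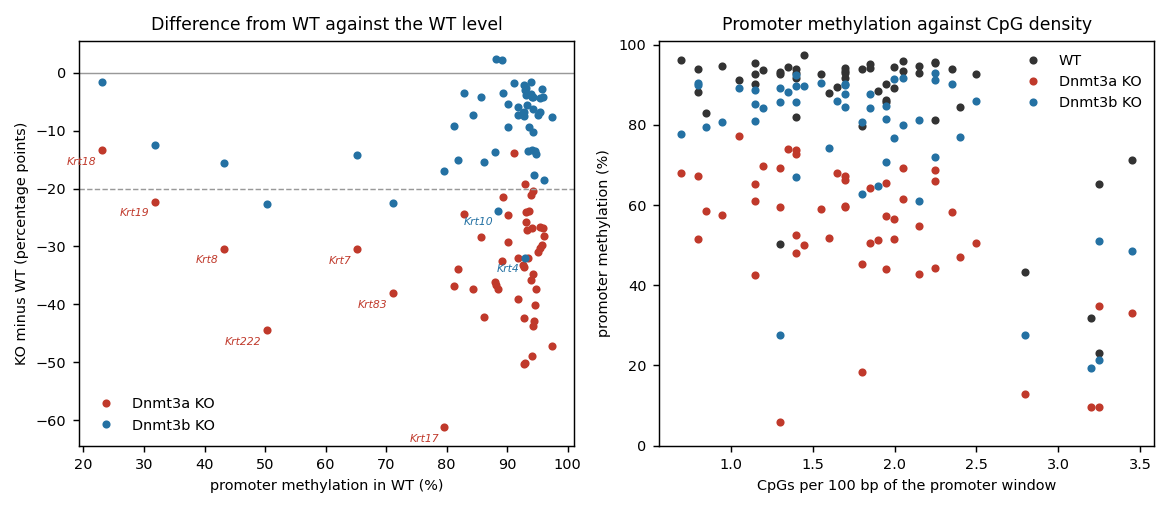
Left, difference of each KO from WT (y axis, percentage points) against promoter methylation in WT (x axis, %) for the 51 keratin genes, with a dashed line at -20 points. Right, promoter methylation (y axis, %) against CpGs per 100 bp of the promoter window (x axis), with a point for each gene and genotype; *Krt8*, *Krt18* and *Krt19* lie with *Krt7* and *Krt83* at the highest densities.

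The promoter windows of the keratin genes held a median of 1.70 CpGs per 100 bp, against 3.25 for all protein-coding genes, whereas *Krt18*, *Krt19* and *Krt8* held 3.25, 3.20 and 2.80. The simple epithelial *Krt20* and *Krt23*, at 1.80 and 2.00, lay near the median. Across the 51 genes, which share the same libraries, Pearson's r between density and WT promoter methylation was -0.562 and Spearman's rho -0.242. Without *Krt8*, *Krt18* and *Krt19* these were -0.283 and -0.093. *Krt83* and *Krt7* had densities of 3.45 and 3.25 but were methylated at 71.1% and 65.2% in WT, and *Krt222* reached its low values at 1.30. The letters TATAAA, on either strand, occur between 250 bases before and 30 bases from the TSS in 25 of 51 keratin genes, or 49.0%, in 83.3% of the *Krtap* genes and in 12.6% of all protein-coding genes. On the strand of the gene and 40 to 16 bases before the TSS they occur in 15 of 51, or 29.4%, in 57.1% and in 2.44%.

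In the gene body the keratin genes had a median of 92.6% in WT, 61.2% without *Dnmt3a* and 86.7% without *Dnmt3b*. The gene body was lower than WT by more than 20 points in 48 of 51 genes in *Dnmt3a* KO ESCs, where 96.7% of all 12703 measured gene bodies were, and in 0 of 51 in *Dnmt3b* KO ESCs, where 3.56% were. Of gene bodies with at least 50% in WT, 48 of 50 were lower without *Dnmt3a* and 0 of 50 without *Dnmt3b*, beside 99.0% and 3.38% of all such gene bodies. *Dnmt3a* KO was lower than *Dnmt3b* KO by more than 20 points in 42 of 51 keratin gene bodies and in 88.4% of all. The median difference was -29.6 points without *Dnmt3a* and -5.57 points without *Dnmt3b*, and all 51 gene bodies were below WT in both, as were 12697 of all 12703 measured gene bodies (100% when rounded) without *Dnmt3a* and 98.8% without *Dnmt3b*.

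**Figure D4:**
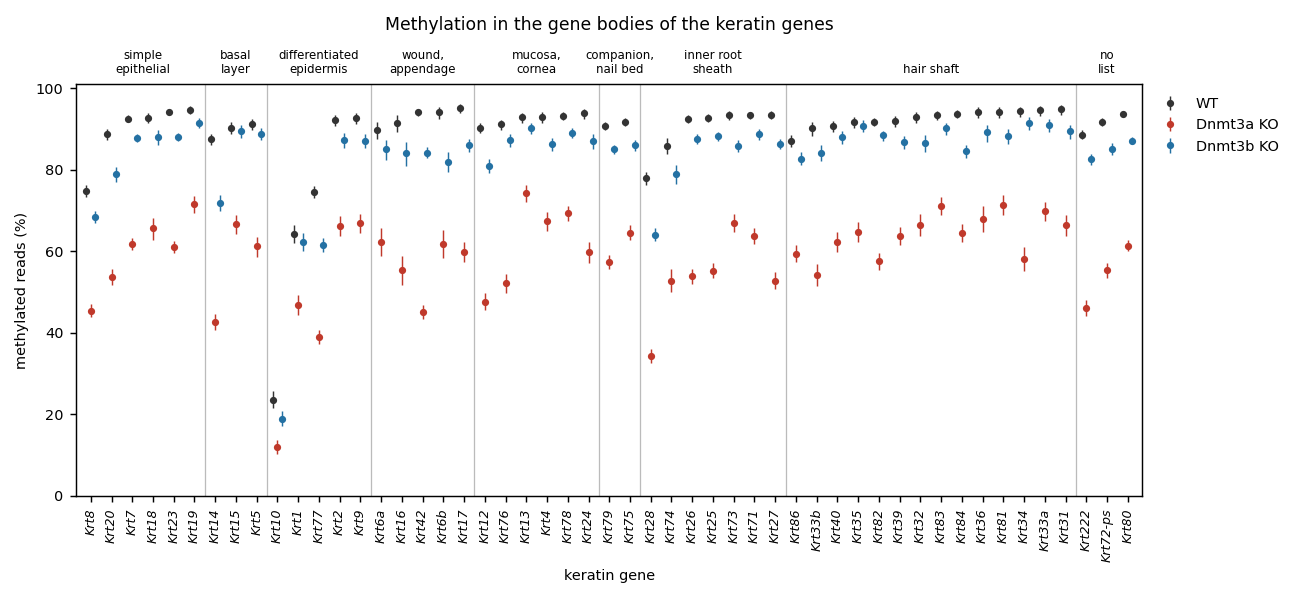
Share of methylated reads (y axis, %) in the gene body of each of the 51 keratin genes (x axis), in the same groups, with points for the 3 genotypes and bars for 95% Wilson intervals of the reads. *Krt10* is the lowest in each genotype, in WT followed by *Krt1*, and the WT points of most other genes lie above 85%.

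*Krt17* had the highest gene body in WT, followed by *Krt31* and *Krt19* with 94.8% and 94.7%. The largest difference in *Dnmt3a* KO ESCs was that of *Krt42*, from 94.1% to 45.1%, or -49.0 points [-50.9 to -47.1]. *Krt14* followed, at 87.5% in WT and 42.7% in *Dnmt3a* KO ESCs, and *Krt28*, of the inner root sheath, at 78.0% and 34.3%. In *Dnmt3b* KO ESCs the largest differences were those of *Krt14*, to 71.9% or -15.6 points [-18.0 to -13.1], of *Krt28*, to 64.1%, and of *Krt77*, to 61.4%. The smallest there were *Krt15* with -0.758 points, *Krt35* with -0.890 points and *Krt1* with -2.01 points, each with an interval that includes 0. *Krt5*, partner of *Krt14*, was at 91.2% in WT, 61.2% without *Dnmt3a* and 88.9% without *Dnmt3b*, so that the gene bodies of the basal pair lay further apart than their promoters in both KOs.

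The 3 lowest gene bodies in WT all belong to keratins of differentiated epidermis, a list in which *Krt9* and *Krt2* were at 92.6% and 92.1%. *Krt10* was at 23.6% [21.7 to 25.7] in WT, 11.9% [10.3 to 13.7] without *Dnmt3a* and 18.9% [17.1 to 20.8] without *Dnmt3b*, and 1.71% of all measured gene bodies were lower in WT. *Krt1* was at 64.3% [62.1 to 66.5], 46.8% [44.4 to 49.2] and 62.3% [60.1 to 64.6]. *Krt77*, a relative of *Krt1* in the same cluster, was at 74.5% [73.0 to 76.0], 38.9% [37.2 to 40.6] and 61.4% [59.7 to 63.1]. The simple epithelial *Krt8*, at 74.7% in WT, lay within the WT interval of *Krt77*. *Krt10*, *Krt1* and *Krt13* had the smallest differences in *Dnmt3a* KO ESCs, with -11.7, -17.6 and -18.7 points, and were the 3 gene bodies that did not pass the limit.

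In these 3 genes the low methylation lay at the 3′ end, in CpG-dense exons. In *Krt10* exon 6 was at 4.96% in WT, and exon 7, with 15.0 CpGs per 100 bp, was at 1.04%, whereas exon 1 was at 87.4% and exon 3 at 91.0%. Exon 7 stayed at 0.628% in *Dnmt3a* KO ESCs and had 0 methylated reads of 567, summed over its CpGs, in *Dnmt3b* KO ESCs. Taken as independent, which neighbouring CpGs on 1 read are not, these allow up to 0.529%. In *Krt1* exon 9, the last one, was at 19.3% in WT, 2.92% without *Dnmt3a* and 13.4% without *Dnmt3b*, and exon 2 was at 94.8%, 55.8% and 93.4%. In *Krt77* exon 9 was at 19.7%, 1.22% and 7.73%, and exon 5 at 98.5%, 69.1% and 94.9%. Keratins 1 and 10 are known for tails rich in glycine. Shown next, as the DNA that was low in every genotype, is for each gene the run of up to 300 coding bases of an exon after exon 1 that holds the most CpGs, 5′ to 3′ on the strand of the gene, with CpGs in capitals (mm9).
Krt10, exon 7, chr11:99247266-99247565, minus strand: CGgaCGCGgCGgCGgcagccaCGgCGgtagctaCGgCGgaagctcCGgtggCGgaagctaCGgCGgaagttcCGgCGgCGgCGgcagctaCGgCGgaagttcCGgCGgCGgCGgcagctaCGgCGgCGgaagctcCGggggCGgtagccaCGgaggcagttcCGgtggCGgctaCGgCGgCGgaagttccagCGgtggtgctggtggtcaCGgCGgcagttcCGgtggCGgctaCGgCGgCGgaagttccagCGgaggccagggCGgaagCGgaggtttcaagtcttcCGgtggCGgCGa
Krt1, exon 9, chr15:101676370-101676669, minus strand: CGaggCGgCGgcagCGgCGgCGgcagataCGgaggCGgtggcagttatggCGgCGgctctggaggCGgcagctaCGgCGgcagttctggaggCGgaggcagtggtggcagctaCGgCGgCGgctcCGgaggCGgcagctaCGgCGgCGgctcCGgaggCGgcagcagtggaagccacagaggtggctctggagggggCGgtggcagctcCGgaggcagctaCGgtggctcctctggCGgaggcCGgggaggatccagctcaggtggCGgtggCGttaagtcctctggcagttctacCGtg
Krt77, exon 9, chr15:101690290-101690534, minus strand: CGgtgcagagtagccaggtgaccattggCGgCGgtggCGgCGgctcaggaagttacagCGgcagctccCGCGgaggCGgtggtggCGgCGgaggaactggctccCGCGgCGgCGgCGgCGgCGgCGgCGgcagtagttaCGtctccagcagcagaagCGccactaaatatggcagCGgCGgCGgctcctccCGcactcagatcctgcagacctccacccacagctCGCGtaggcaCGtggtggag

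The stretch of *Krt10* holds 48 CpGs, against 15 at the *Krt18* start. Its measured CpGs were at 1.10% [0.507 to 2.39] in WT and 0.667% [0.227 to 1.94] in *Dnmt3a* KO ESCs, and 0 of 530 reads in *Dnmt3b* KO ESCs were methylated. The stretch of *Krt1* was at 4.95% [3.29 to 7.39] in WT and 0.930% [0.362 to 2.37] in *Dnmt3b* KO ESCs, with 0 of 276 reads in *Dnmt3a* KO ESCs, which allows up to 1.09%. That of *Krt77* was at 2.14% [0.916 to 4.90] in WT and 1.87% [0.909 to 3.81] in *Dnmt3b* KO ESCs, with 0 of 268 reads in *Dnmt3a* KO ESCs, which allows up to 1.12%. The measured CpGs, 47 of 48 in *Krt10*, 29 of 32 in *Krt1* and 23 of 29 in *Krt77*, were thus together nearly free of methylation in WT already. Single CpGs reached 23.1%, 26.7% and 21.4% in WT, on 13 to 15 reads. The promoters of the 3 genes were at 88.6%, 96.0% and 90.2%. Around the stretches the low DNA was longer in *Dnmt3a* KO ESCs. The longest run of CpGs under 20% in *Krt77* went from 19 CpGs over 264 bp in WT to 52 CpGs over 1790 bp without *Dnmt3a* and 29 CpGs over 505 bp without *Dnmt3b*. In *Krt1* it held 18, 36 and 27 CpGs. In *Krt10* it held 53, 65 and 77 CpGs, the only one of the 3 with its longest run in *Dnmt3b* KO ESCs. The *Krt10* runs in WT and *Dnmt3a* KO ESCs both ended before 1 CpG, 3327 bp after the TSS. That CpG was at 23.1% of 13 reads in WT, 27.3% of 11 without *Dnmt3a* and 0% of 11 without *Dnmt3b*. From 1 kb before to 1 kb after *Krt10*, CpGs under 20% numbered 75 in WT, 88 without *Dnmt3a* and 83 without *Dnmt3b*. The annotated gene *Gm11940* overlaps *Krt10*, but not its 500-bp bins under 20% in WT, chr11:99247000-99248499.

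**Figure D5:**
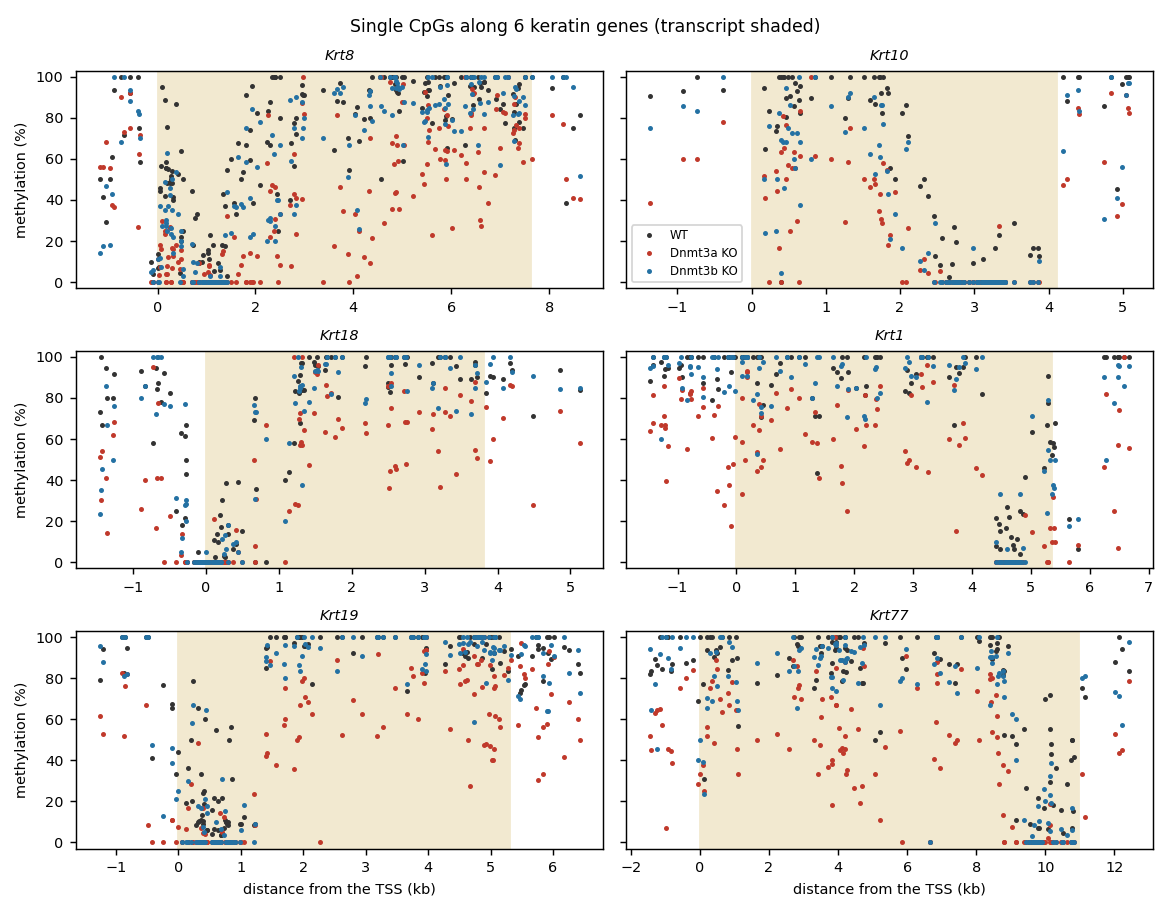
Methylation of single CpGs (y axis, %) by distance from the TSS (x axis, kb) along *Krt8*, *Krt18* and *Krt19* (left) and *Krt10*, *Krt1* and *Krt77* (right), with the transcript shaded and a point for each CpG and genotype. The low CpGs lie around the TSS or in the first part of the transcript on the left, starting before the TSS in *Krt18*, and near the transcript end on the right.

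Runs of at least 10 successive CpGs under 20%, from 1 kb before to 1 kb after each transcript, were found in 5 of 51 genes in WT, namely *Krt10*, *Krt18*, *Krt77*, *Krt1* and *Krt8*, beside 63.9% of all protein-coding genes. Without *Dnmt3a* 11 of 51 had one, beside 70.8% of all, with *Krt19*, *Krt17*, *Krt222*, *Krt28*, *Krt42* and *Krt20* added. Without *Dnmt3b* 7 of 51 had one, beside 66.6% of all, with *Krt19* and *Krt222* added. At *Krt20* the run lay inside the gene, from 7085 bp after the TSS, and at *Krt28* it crossed the transcript end, from 9698 to 10451 bp. At *Krt42* it lay past the transcript end, from 7026 bp, and is the same stretch as the run at the neighbour *Krt17*, so that the 11 genes hold 10 separate stretches. At *Krt17* and *Krt222* the run covered the TSS.

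By gene feature, the other 48 keratin genes differed in where *Dnmt3b* KO ESCs were lower. In the exon that holds the TSS, the share was 89.9% [89.4 to 90.3] in WT and 77.3% [76.7 to 77.9] in *Dnmt3b* KO ESCs, a difference of -12.5 points [-13.3 to -11.8]. In introns it was 91.0% and 85.4%, a difference of -5.67 points [-6.04 to -5.30]. In *Dnmt3a* KO ESCs the same features differed from WT by -33.8 points [-34.7 to -32.9] and -32.5 points [-33.0 to -32.0]. The last exon, which holds the low DNA of *Krt1* and *Krt77*, differed by -10.1 points in *Dnmt3b* KO ESCs and inner exons by -6.32 points, so that the exon at the TSS had the largest difference of the 4 features there. Its CpGs overlap the promoter window and the bin just after the TSS, so that it is not a separate observation from these. At *Krt8*, *Krt18* and *Krt19* together, that exon was at 27.3% in WT, 6.61% without *Dnmt3a* and 16.7% without *Dnmt3b*, whereas their last exons were at 91.9%, 69.4% and 89.6%.

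DNA between the genes was methylated like the genes. In the type I cluster, chr11:99094075-100131185, CpGs outside all annotated genes and keratin promoters were at 87.3% in WT, 55.1% without *Dnmt3a* and 78.9% without *Dnmt3b*, and those in keratin transcripts at 89.0%, 55.2% and 81.5%. In the type II cluster, chr15:101180002-101862457, the values were 88.0%, 54.5% and 81.2% between genes and 87.5%, 57.0% and 80.4% in keratin transcripts. The 2 clusters lay above the rest of their chromosomes in WT, 82.0% on chromosome 11 and 84.2% on chromosome 15.

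Of 896 bins of 500 bp with at least 5 measured CpGs in the type I cluster, 7 were under 20% in WT, 46 without *Dnmt3a* and 12 without *Dnmt3b*. In the type II cluster 10, 38 and 16 of 685 bins were. Over the whole part of the genome covered, 3.21%, 9.78% and 4.30% of 1049169 such bins were. In WT 3 of the bins on chromosome 11 lay in *Krt10* and 1 in *Krt19*, and on chromosome 15 there were 2 in *Krt1* and 1 each in *Krt77*, *Krt8* and *Krt18*. The 8 others lay outside the annotated genes. One of them, upstream of *Krt18* at chr15:101856000-101856499, was at 3.82% in WT, 5.71% without *Dnmt3a* and 1.97% without *Dnmt3b*. Bins at chr15:101814500-101814999 and chr15:101818500-101818999, past the end of *Krt8*, were at 2.49% and 1.29% in WT and no higher than that in the KOs. Bins both under 20% in *Dnmt3a* KO ESCs and at 50% or more in WT numbered 31 of the 896 on chromosome 11 and 16 of the 685 on chromosome 15. For *Dnmt3b* KO ESCs these were 1 of 896 and 0 of 685. Of all 1049169 bins 4.62% were such bins for *Dnmt3a* KO ESCs and 0.0981% for *Dnmt3b* KO ESCs.

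Counted by single CpGs, a CpG was lower when the whole interval of its difference from WT lay below -20 points. At the keratin promoters 505 of 1790 CpGs, or 28.2%, were lower in *Dnmt3a* KO ESCs and 66 of 1794, or 3.68%, in *Dnmt3b* KO ESCs, where 27.2% and 2.40% of all CpGs were. In the gene bodies 1189 of 4277 CpGs and 98 of 4288 were lower. Of promoter CpGs with 10 or more reads per genotype in the windows of the other 48 genes, 82.6% were methylated at 80% or more in WT, 20.3% without *Dnmt3a* and 65.3% without *Dnmt3b*. Over all CpGs of the genome part covered these shares were close, 80.2%, 16.8% and 65.8%. Of the same promoter CpGs 1.36% were under 20% in WT, 13.2% without *Dnmt3a* and 4.01% without *Dnmt3b*, where 5.90%, 15.8% and 7.51% of all CpGs were. Those in between made up 66.5% in *Dnmt3a* KO ESCs, beside 67.4% of all CpGs. At *Krt8*, *Krt18* and *Krt19* 49.7% of promoter CpGs were under 20% in WT, 83.9% without *Dnmt3a* and 63.8% without *Dnmt3b*. There 31 of 180 CpGs were counted as lower in *Dnmt3a* KO ESCs.

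The *Krtap* genes, whose products bind hair keratins, lie within the type I cluster and elsewhere. Their promoter medians were near those of the keratin genes. Their 41 measured promoters had a median of 90.6% in WT, 59.4% without *Dnmt3a* and 85.8% without *Dnmt3b*, with 34 lower by more than 20 points without *Dnmt3a* and 1 without *Dnmt3b*. All 41 were at 50% or more in WT, where 95.8% and 7.46% of all such promoters were lower. Of the keratin promoters at that level 46 of 48 and 4 of 48 were. Genes of the epidermal differentiation complex, which build the cornified envelope around keratin filaments, had a median of 88.0%, 51.2% and 78.9%. Of their 16 promoters, all at 50% or more in WT, 15 were lower in *Dnmt3a* KO ESCs, a share near that 95.8%, and none was in *Dnmt3b* KO ESCs. The largest differences in *Dnmt3a* KO ESCs were at *Sprr1a*, from 80.3% to 18.6% on only 5 CpGs, and *Tchhl1*, from 92.8% to 40.6% on 13. These promoters held a median of 8.5 measured CpGs, against 33 at the keratin promoters.

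Genes outside the epidermis-specific lists were mixed, and their counts stand beside 44.5% of all promoters lower in *Dnmt3a* KO ESCs and 3.48% in *Dnmt3b* KO ESCs. Of the promoters at 50% or more in WT, all 7 of the desmosome list, 3 of the linkers, 3 of the transcription factors and 1 of the other filaments were lower in *Dnmt3a* KO ESCs, beside 95.8% of all such promoters. Of 15 desmosome genes, which anchor keratin filaments at cell junctions, 8 promoters were lower without *Dnmt3a* and 1, *Dsc3*, without *Dnmt3b*. The largest differences in *Dnmt3a* KO ESCs were those of *Dsc1*, from 93.3% to 44.0%, and *Dsg1b*, from 89.3% to 49.8%, both desmosomal cadherins. Of 8 linkers and hemidesmosome genes 4 were lower in *Dnmt3a* KO ESCs, led by *Col17a1*, from 90.1% to 43.8%, and *Plec*, from 42.5% to 7.28%. Of 12 genes of epidermal transcription factors 4 were lower in *Dnmt3a* KO ESCs, led by *Zfp750*, from 61.7% to 4.87%, and *Trp63*, from 82.5% to 50.0%. The *Trp63* value is that at the start of its longest annotated transcript, on 13 CpGs, and any other start was not measured. *Zfp750* was also lower in *Dnmt3b* KO ESCs, at 38.6%, whereas *Trp63* was at 92.9% there. Of 13 genes of other intermediate filaments 2 were lower in *Dnmt3a* KO ESCs, *Gfap*, from 65.3% to 33.0%, and *Des*, from 46.6% to 18.1% (2 also in *Dnmt3b* KO ESCs, *Des* and *Nefm*), and their median in WT was 12.1%.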

How the data were processed

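WGBS of 3 libraries per genotype was aligned to mm9 by the authors with BSMAP, cleaned of end-repair bases, clonal reads and mate overlaps with BSeQC, and counted with MOABS. The deposited tables give, per CpG, the count of all reads and of methylated reads, merged over libraries and not normalized. The authors also deposited the methylation fraction of each CpG, the methylated reads divided by all reads. Each position in the part shared by the 3 tables was checked to be a CpG of the reference, and the fractions were recomputed from the counts. The WT table ends on chromosome 4 at position 140865857, and its incomplete last row was left out.

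Genes were taken from the GENCODE vM1 annotation of the same build, with the transcript of longest span. *Flg* has several annotated entries, of which the longest was used. Windows needed at least 3 CpGs. The members, the lists of genes and the limits were chosen with earlier results of these data known. Named genes are *Krt8*, *Krt18*, *Krt19*, *Krt5*, *Krt14*, *Krt1* and *Krt10*, the 3 highest and 3 lowest genes of each window in WT, those with the 3 largest and 3 smallest differences in each KO, and the 2 genes with the largest *Dnmt3a* KO difference of each other list; a few others were named after their values were seen. The calls were tested on simulated data with drops planted in 200 genes, with reads drawn independently at each CpG. That simulation held no variation between libraries or lines, so that it cannot show how the calls fare under it. Intervals do not cover uneven depth over CpGs of unlike methylation. Python 3.11.15, NumPy 2.4.6, SciPy 1.17.1 and matplotlib 3.10.9 were used. Depth on chromosomes 11 and 15 was 22.9 to 24.0 reads per reference CpG. The alternatives covered read and CpG minimums, weighting, depth, transcripts, window width and the limit.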

Additional observations from a re-analysis of the deposited data

How the results depend on the processing

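No paired analysis was possible because the libraries of a genotype are merged to 1 value and no test was made, and for the same reason no library could be left out. The counts of lower keratin genes stayed within 1.5 times of those given in 46 of 52 alternatives, and the other 6 concern the limit itself. With a limit of 10 points, *Dnmt3b* KO ESCs had 18 lower promoters and 4 lower gene bodies. With a limit of 30 points, *Dnmt3a* KO ESCs had 31 lower promoters and 24 lower gene bodies, and *Dnmt3b* KO ESCs had 1 lower promoter. With the whole interval of the difference past 20 points, *Dnmt3b* KO ESCs had 1 lower promoter. The promoter levels of *Krt8*, *Krt18* and *Krt19* stayed within their intervals in 27 of 36 alternatives. Within 500 bp of the TSS *Krt18* was at 12.8% in WT, 2.06% without *Dnmt3a* and 8.88% without *Dnmt3b*. The comparison of the KOs and the counts of single CpGs had alternatives chosen after seeing the data, 8 in all, and stayed within 1.5 times. Depth limits single CpGs, with about 23 reads each, more than windows.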

Other observations

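In the epidermal differentiation complex 2 gene bodies were low in every genotype. That of *Tchh*, trichohyalin of the inner root sheath, was at 2.35% in WT, 0.835% without *Dnmt3a* and 1.10% without *Dnmt3b* over 352 CpGs, and its promoter at 73.9%, 49.2% and 54.4%. That of *Lor*, the glycine-rich loricrin, was at 4.38%, 0.178% and 0.873% over 125 CpGs, and its promoter at 68.4%, 53.3% and 66.7%. The other 10 measured gene bodies of this list were at 78.7% or more in WT. *Tchh* and *Lor* were named after their values were seen.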
